A study of Mus musculus with 4 samples.

Results

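The comparison was between macrophages from Batf2 knockout mice and macrophages from wild-type mice, both after 8 h with R848. It rests on the arrays labelled with that genotype and treatment, 2 of the 4 arrays of the series, with 1 array per genotype. Of the 56605 probes that are not controls, 37564 were well above background on at least 1 of these arrays, and they measured 19011 of the 25107 genes that could be named. The cells came from male mice on the C57BL/6J background, wild type or Batf2-/-, and the labels give neither the age nor the number of mice behind a culture, nor the part of Batf2 that was deleted. Marrow cells were grown with 3 ng/ml M-CSF, the growth factor that drives macrophage formation, until day 5, and then received 100 ng/ml R848 or nothing. The untreated arrays of both genotypes, labelled 0 h of R848, are given beside the R848 values. No array is labelled as a culture kept for 8 h without R848. Between the untreated and R848 arrays, R848 and time in culture therefore cannot be told apart.

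BATF2 is a basic leucine zipper protein of the AP-1 family, a small member that pairs with JUN proteins on AP-1 sites and has no activation domain of the FOS kind. In macrophages it is known as an interferon-inducible factor that works together with IRF1. R848 (resiquimod) is an imidazoquinoline that mouse cells sense through TLR7, a receptor of endosomes, and through the adaptor MYD88 it switches on NF-kB, AP-1 and interferon regulatory factors, the drivers of inflammatory cytokine and interferon-stimulated genes.

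Levels are given as relative signal, the processed signal of a probe divided by the 75th percentile of its array, so 1 is the level of the 75th percentile and the ratio of 2 arrays is the fold. Differences are knockout minus wild type on the log2 scale of relative signal. The words higher and lower in a count stand for a difference of 2-fold or more. With 1 array per genotype there is no replicate, no test and no p-value. The only error that the files give is that of Feature Extraction for each spot, which comes to a median of 0.208 on the log2 scale for a difference, and the spread over the repeated spots of 283 probes was 0.07 (SD, log2). Both cover technical error within an array and leave out the spread between cultures.

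Batf2 was seen in stimulated wild-type cells and not in stimulated knockout cells. Its relative signal with R848 was 0.357 in wild type and 0.0428 in knockout, where the probe was not well above background, so the knockout value was at least 6.20-fold lower. Untreated, the values were 0.123 in wild type and 0.102 in knockout, both well above background. The stimulated wild-type array thus stood above the other 3. The position of the single probe relative to the deletion is unknown here, so its value does not settle the genotype label. Batf, a relative of Batf2 that can stand in for family members in other cells, was at 4.07 and 2.73 with R848, a difference of -0.57. Batf3 was at 0.198 and 0.159. Of the 17 measured BATF and AP-1 factors, Batf2 alone passed 2-fold. The JUN family partners Junb (180 and 203) and Jund (60.7 and 69.0) were within 1.14-fold of each other in the genotypes. Jun, whose probe lies among spots with a shared shift, was at 1.005 and 1.415, 1.41-fold higher in knockout.

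Between the stimulated genotypes, 451 genes were at least 2-fold higher in knockout (2.37% of those measured) and 459 were at least 2-fold lower (2.41%), together 4.79%. With the authors' own scaling, 492 were higher and 320 lower, so higher genes made up 60.6% of the calls there and 49.6% here. The median difference over all genes was 0.033, and 54.3% of genes lay above 0. Many of the calls are dim genes: among the 9139 genes whose brighter array reached its 75th percentile, 94 were higher (1.03%) and 137 lower (1.5%). The value of the dimmer array is a lower bound for 184 of the higher and 123 of the lower genes. Several probes measured 116 of the higher and 112 of the lower genes, and they shared 1 direction in 80 and 81 of them. For a stricter look, genes are called well measured here where the brighter array reached its 75th percentile, both arrays were well above background, all probes went one way and the spots around the probe showed no shared shift. Of these, 77 were higher and 101 lower. Just inside 2-fold lay Stx2 (1.01) and Gpr31b (-1.01), and just outside it Spp1 (0.998) and Acap1 (-0.999), so membership near the threshold rests on very small steps.

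**Figure D1:**
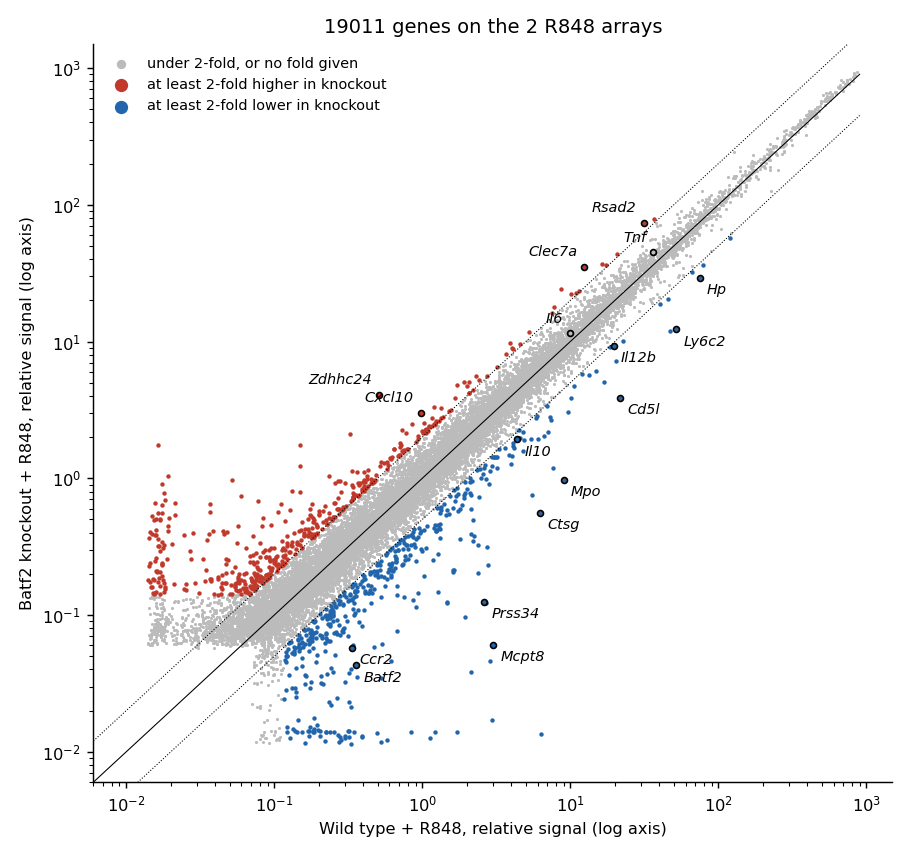
Relative signal of 19011 genes on the wild-type R848 array (x axis, log scale) and the knockout R848 array (y axis, log scale), 1 point per gene; the solid line marks equal levels and the dotted lines 2-fold. Mcpt8, Prss34, Ctsg and Mpo lie far below the diagonal, and most coloured points, 451 red and 459 blue, lie at low signal, where points at the far left and bottom are not well above background on 1 array.

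The cultures were macrophages by their markers on both arrays. Of 16 macrophage identity markers 15 were measured, among them the F4/80 gene Adgre1 (160 in wild type and 171 in knockout), Cd68 (52.2 and 63.3), the M-CSF receptor Csf1r (66.3 and 95.1) and Itgam (286 and 329, a probe among shifted spots). Their summed relative signal was 1036 in wild type and 1184 in knockout. Cx3cr1 was lower and Mertk higher past 2-fold, and Cd163 did not reach background level on these arrays.

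Transcripts of basophils and granulocyte precursors were among the lowest in the knockout culture, with and without R848. In the list of mast cell and basophil markers 11 genes were measured, of which 6 (54.5%) were past 2-fold on the lower side and none on the higher (list median -1.95), against 2.41% lower among all genes. The basophil protease Mcpt8 was at 3.02 in wild type and 0.0605 in knockout with R848, and at 7.76 and 0.165 untreated. The knockout R848 value was not well above background, which makes the difference at least 49.9-fold. Prss34, another basophil protease, was at 2.62 and 0.124 with R848 (21.1-fold lower) and at 5.42 and 0.249 untreated. Prss34 thus differed by about the same factor in each condition, while the Mcpt8 value with R848 is a bound. Gata2, a transcription factor of these lineages, was at 1.02 and 0.192. Kit, the stem cell factor receptor, was at 2.75 and 0.315 by its brightest probe, while its probes ranged from -3.12 to 0.12. Cpa3 and Ms4a2, which encode a mast cell protease and a chain of the IgE receptor, were not well above background in knockout with R848. Other members did not go lower: the mast cell tryptase Tpsb2 was at 0.464 and 0.492, and the chymase Cma1, not well above background in wild type, at least 1.58-fold higher. The list's summed signal was 14.7 in wild type and 3.71 in knockout with R848, and 24.9 and 3.56 untreated.

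Markers of granulocytes and their precursors were lower in 10 of 17 cases and higher in none (list median -1.62, between -1.67 and -0.86 over all settings). Over all genes 2.41% were lower. The primary granule genes Ctsg (6.22 and 0.562), Mpo (9.01 and 0.978) and Elane (2.19 and 0.350) were 11.1-fold, 9.22-fold and 6.24-fold lower in knockout with R848. The progenitor transcription factor Myb was at 2.12 and 0.390, and Ms4a3, a gene of granulocyte and monocyte progenitors, at 2.38 and 0.324. Cebpe, a transcription factor of granule genes, was at 2.43 and 0.724. Members that did not pass 2-fold included genes of secondary and late granules: Ngp was at 46.4 and 25.9, Camp at 52.1 and 37.6 and Ltf at 9.14 and 7.88. The list's summed signal was 143 and 78.9 with R848 and 257 and 103 untreated.

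Of 10 monocyte markers, 5 were lower and 1 higher, against 2.41% and 2.37% of all genes. Ly6c2, the surface antigen of inflammatory monocytes, was at 52.1 and 12.3 with R848 and at 33.3 and 5.88 untreated. Its probe may also read near-identical Ly6 paralogs. Ccr2, the receptor for CCL2 that takes monocytes out of the marrow, was at 0.334 and 0.0579, the latter not well above background, so at least 5.77-fold lower. The transglutaminase gene F13a1 was at 1.81 and 0.359 by its brightest probe, while its probes ranged from -2.33 to -0.80 with a median of -0.80. Haptoglobin (Hp) was at 74.7 and 29.3 and Chil3 at 120 and 57.4. Vcan, a matrix proteoglycan, went the other way, at 1.01 and 2.14. In bulk RNA, fewer cells of a type and less RNA per cell cannot be told apart, and what these cells contribute to the differences described below was not tested.

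Lymphoid markers went both ways, and those past 2-fold were dim or moderate in signal. Iglv1, an immunoglobulin lambda segment whose probe may read its relatives, was at 0.324 and 2.11 with R848 and at 1.02 and 3.24 untreated. Jchain, a plasma cell gene, was at 0.426 and 0.980. These were higher in knockout, while the B cell markers Ms4a1, Pax5, Cd79a and Cd79b lay within 1.29-fold of each other with R848. The early B cell genes Vpreb1 and Ebf1 passed 2-fold in opposite directions, Vpreb1 at least 3.58-fold lower and Ebf1 at least 2.25-fold higher, each with 1 array not well above background. Cd8a was at 0.673 and 0.139 with R848, yet at 0.0775 and 0.0633 untreated, so the stimulated wild-type array stood alone. Nkg7, a gene of cytotoxic lymphocytes, was at 0.296 and 0.0807. The T cell genes Cd3e, Cd4 and Lck were within 1.20-fold. None of 10 erythroid and megakaryocyte markers passed 2-fold, and their summed signal was 62.8 in wild type and 83.7 in knockout with R848 and 51.5 and 35.1 untreated.

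**Figure D2:**
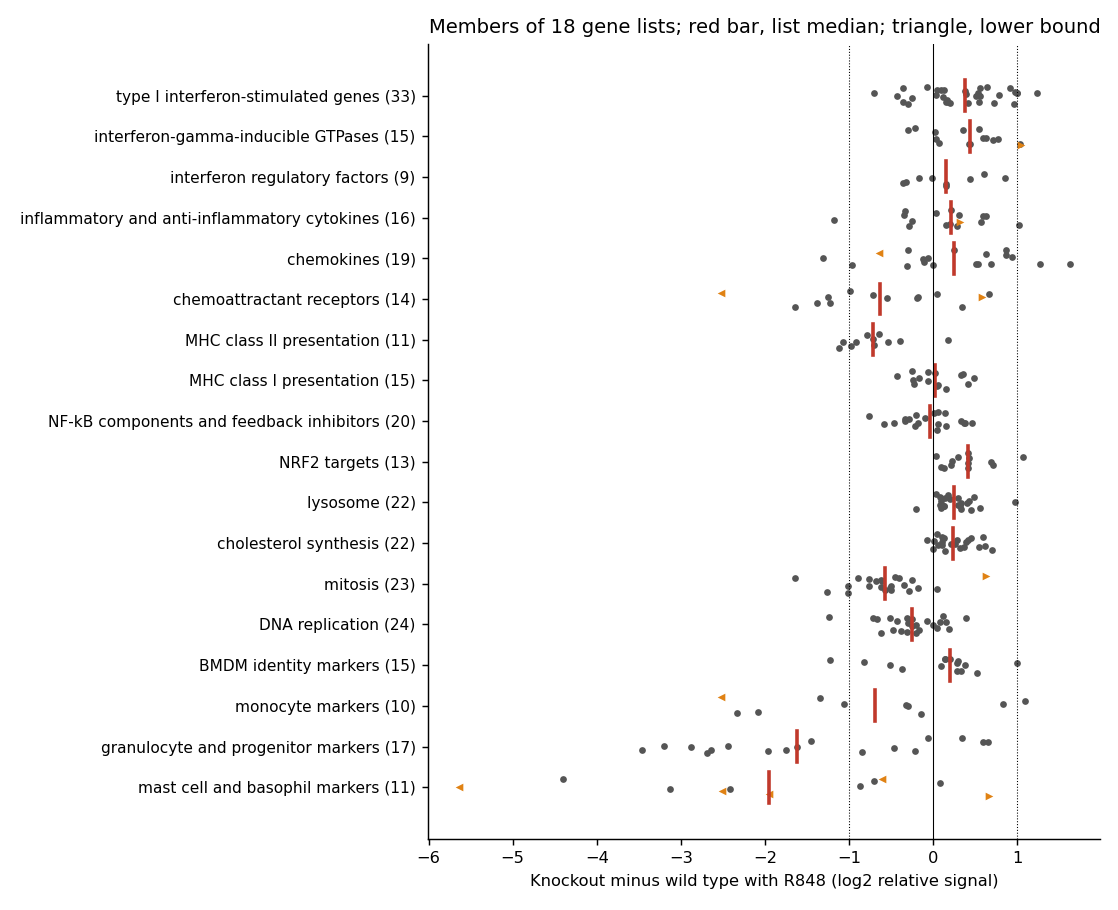
Knockout minus wild type with R848 (log2 relative signal) for every measured member of 18 gene lists, 1 point per gene with the number of genes in brackets; triangles are lower bounds, red bars are list medians and dotted lines mark 2-fold. Medians lie between -1.95 for mast cell and basophil markers and 0.44 for interferon-gamma-inducible GTPases.

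The IL-12 family split by subunit. Il12b, the p40 chain shared by IL-12 and IL-23, was at 19.6 in wild type and 9.35 in knockout with R848, 2.10-fold lower. Untreated it was at 0.0748 and 0.0696, nearly level but close to the lowest values well above background (0.0433 and 0.0439). Ebi3, the chain of IL-27 and IL-35, was at 20.7 and 12.4. Il12a, the p35 chain, was at 2.50 and 2.93, and Il27 at 2.0 and 2.25. Il23a, the p19 chain of IL-23, was not well above background on either R848 array, so it has no value here. The p40 and EBI3 chains were thus the lower members, and the p35 and p28 chains differed by less than 1.18-fold.

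Among 16 measured inflammatory and anti-inflammatory cytokines, 1 was lower and 1 higher (6.25% each, against 2.41% and 2.37% of all genes). Il10, the main anti-inflammatory cytokine of macrophages, was at 4.36 in wild type and 1.93 in knockout with R848, and at 0.194 and 0.153 untreated, 2.26-fold lower with R848. Il15, which sustains natural killer cells, was at 0.803 and 1.64, although its 3 probes ranged from 0.31 to 1.03. The strongly induced cytokines lay closer together. Tnf was at 36.3 and 44.9, Il1b at 34.2 and 39.7 and Il6 at 9.95 and 11.5, slightly higher in knockout and within 1.24-fold. Il1rn, the receptor antagonist that opposes IL-1, was at 14 and 11.5. Il18 was at 2.89 and 4.48, a difference of 0.63 below the 2-fold threshold.

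Chemokines were led by Cxcl10, a ligand of the T cell receptor CXCR3. Its relative signal was 0.973 in wild type and 3.01 in knockout with R848, 3.09-fold higher. Untreated it was 0.133 in wild type and 0.0405 in knockout, where it was not well above background, so the order of the genotypes was the opposite. Both Cxcl10 probes were higher with R848, at 1.63 and 1.75. Ccl7, a monocyte attractant, was at 0.10 and 0.241, and Ccl8, another of the same gene cluster, at 0.242 and 0.0977, all at low signal. Ccl4, the MIP-1 beta gene, was at 121 and 61.8, a 1.96-fold lower value that falls just short of the threshold, while its neighbour Ccl3 was at 51.0 and 47.4. The neutrophil attractants Cxcl1 (18.9 and 30.6), Cxcl2 (38.3 and 70.2) and Cxcl3 (14.9 and 28.5), named after their values were seen, were each higher in knockout by less than 2-fold.

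Chemoattractant receptors were lower in 5 of 14 cases and higher in none (list median -0.63, between -0.68 and -0.43 over all settings). Over all genes 2.41% were lower. Besides Ccr2, the leukotriene B4 receptor Ltb4r1 was at 0.728 and 0.234, and the lymph node homing receptor Ccr7 at 0.796 and 0.306. The fractalkine receptor Cx3cr1 was at 13.3 and 5.69 with R848 and at 12.2 and 3.82 untreated. The formyl peptide and complement receptors were close: Fpr2 was at 77.1 and 79.7, C5ar1 at 23.7 and 20.7 and C3ar1 at 71.7 and 63.1. Ccr2, Cx3cr1 and Ltb4r1 were also lower untreated and are genes of monocytes and granulocytes, whose markers moved with them; the part of those cells was not tested.

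Interferon-stimulated genes were mostly higher in stimulated knockout cells, in small steps. Of 33 measured type I interferon-stimulated genes, 26 lay above 0, 2 were at least 2-fold higher (6.06%, against 2.37% of all genes) and none lower, with a median of 0.38. Over all genes 54.3% lay above 0. Centring on the array median, which moved the median over all genes from 0.033 to -0.013, left 24 of the list above 0. Without R848 the list's median was -0.54, and 9 genes were past 2-fold on the lower side and none on the higher. Rsad2, the gene of the antiviral enzyme viperin, was at 31.5 in wild type and 73.8 in knockout with R848, and at 6.80 and 3.37 untreated. It was thus higher in knockout with R848 and lower without, and both of its probes were higher with R848 (1.18 and 1.23). Cmpk2, its neighbour and a nucleotide kinase, was at 16.1 and 31.8 with R848 and at 2.68 and 1.43 untreated. Mx2, the other gene past 2-fold, was at 0.376 and 0.752, with probes between 1.0 and 3.27. Its difference of 1.0007 passed the threshold by less than the shift from array median centring. Ifit1 (5.89 and 11.1) and Ifit2 (8.27 and 16.5), whose proteins bind foreign RNA and which were picked after their values were seen, were 1.26 and 1.43 lower on the log2 scale untreated. At the lower end stood Ifi27l2a (2.71 and 1.66) and Isg20 (6.06 and 4.50).

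The interferon-gamma-inducible GTPases, which attack vacuoles of intracellular pathogens, stood mostly above 0 as well. Of 15 measured, 13 lay above 0 (11 under array median centring), with a median of 0.44 with R848 and -0.32 untreated, where 2 were at least 2-fold lower. Gbp4 and Gbp6 passed 2-fold narrowly, with differences of 1.04 each, and only at signals of 0.153 and 0.180 in knockout. The bright members Ifi47 (16.5 and 24.9), Gbp2 (10.4 and 15.3) and Irgm2 (8.18 and 14) were 1.51-fold, 1.47-fold and 1.71-fold higher.

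The interferon pathway itself differed less. Ifnb1, the interferon-beta gene, was at 0.0766 and 0.121, near the background, and not above it untreated. Irf1, the partner of BATF2 in macrophages, was at 7.79 and 14.2 with R848 and at 4.01 and 4.05 untreated, a 1.82-fold higher value. Irf7, the regulator that amplifies interferon, was at 20.6 and 16.5 with R848 and at 8.74 and 1.57 untreated. No interferon regulatory factor passed 2-fold with R848. The receptor chains Ifnar1 (163 and 157) and Ifngr2 (30.6 and 36.5) and the transducers Tyk2 and Stat3 lay within 1.19-fold. Stat4, which carries signals of IL-12 and interferon, was at 0.243 and 0.0408, the latter not well above background, so at least 4.23-fold lower.

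Cxcl10 and Rsad2 are the named genes that stood past 2-fold on opposite sides in the untreated and the stimulated comparison, and their promoters are shown because each holds both an AP-1 site, the kind of site BATF proteins bind with JUN, and an interferon-stimulated response element, the site of IRF factors. Il12b, lower in knockout, is shown for comparison. The stretches are the 250 bases before the RefSeq start in GRCm38.p6, with capitals for matches to TGANTCA (AP-1) or to GAAA, any 2 bases and GAAA again (ISRE) on either strand; none of the matches overlap.
Cxcl10, chr5:92348890-92349139, minus strand: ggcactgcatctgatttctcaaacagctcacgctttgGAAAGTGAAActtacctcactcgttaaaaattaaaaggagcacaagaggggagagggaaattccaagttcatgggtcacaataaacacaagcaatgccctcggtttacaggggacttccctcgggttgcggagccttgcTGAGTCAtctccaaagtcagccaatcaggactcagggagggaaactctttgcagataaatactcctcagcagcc
Rsad2, chr12:26456453-26456702, minus strand: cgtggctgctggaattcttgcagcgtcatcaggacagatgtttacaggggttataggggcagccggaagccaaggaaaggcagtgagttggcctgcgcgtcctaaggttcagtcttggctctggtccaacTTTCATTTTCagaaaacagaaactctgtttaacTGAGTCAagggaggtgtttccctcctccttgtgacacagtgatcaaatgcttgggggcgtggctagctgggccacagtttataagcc
Il12b, chr11:44399813-44400062, plus strand: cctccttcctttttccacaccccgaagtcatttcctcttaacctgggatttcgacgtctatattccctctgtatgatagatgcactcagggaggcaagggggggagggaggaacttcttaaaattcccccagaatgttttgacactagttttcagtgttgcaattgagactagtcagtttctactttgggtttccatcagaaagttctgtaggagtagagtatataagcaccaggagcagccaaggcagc

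The AP-1 match TGAGTCA begins 74 bases before the start of Cxcl10 and 87 before that of Rsad2, and the ISRE match begins 213 and 120 bases before it. The Il12b window holds neither set of letters. Over all 27025 promoters of the table, 6.87% hold the AP-1 letters, 3.04% the ISRE letters and 0.222% both. Among the 23 interferon-stimulated genes with a promoter in the table, 47.8% hold the ISRE letters and 21.7% the AP-1 letters. Among well-measured genes with a promoter, 4 of 65 higher genes (6.15%) and 7 of 75 lower genes (9.33%) hold the AP-1 letters. Both motifs stand before 23 measured genes, of which Cxcl10 and Rsad2 were at least 2-fold higher and none was lower. Over all measured genes 2.37% were higher and 2.41% lower. The pair of motifs is shown because Cxcl10 and Rsad2 hold it, so their place in this count was fixed in advance. Next below them were Irgm1 (0.63), Gbp2 (0.55) and Ifit3 (0.55), all under 2-fold. At the lower end stood Olfr218 (-0.65) and Gm6040 (-0.36). The motifs were chosen after the values were seen, and a match is a description of letters only.

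**Figure D3:**
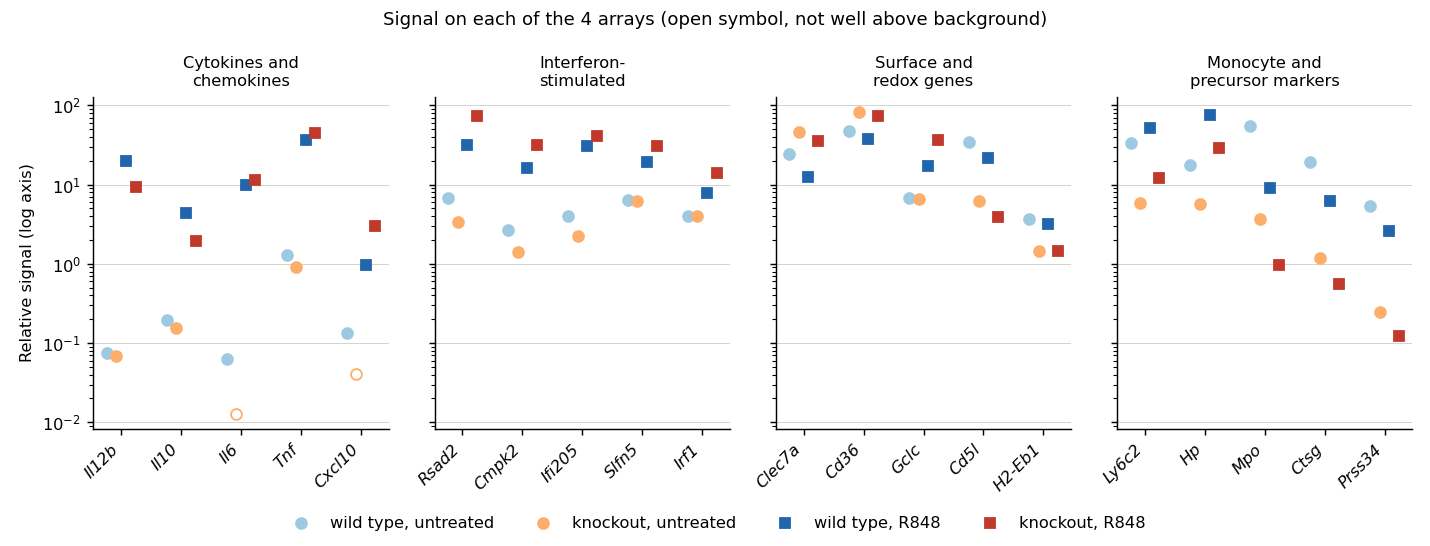
Relative signal (log axis) of 20 genes on each of the 4 arrays, circles for untreated and squares for R848, blue for wild type and orange or red for knockout; an open symbol is not well above background. Cxcl10, Rsad2 and Cmpk2 are lower in knockout untreated and higher in knockout with R848, whereas Cd5l, H2-Eb1 and the 5 marker genes on the right are lower in knockout in both conditions.

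Most MHC class II genes lay below 0 in the knockout, and few passed 2-fold. Of 11 measured, 10 lay below 0 under the 75th percentile, median, quantile and authors' scaling alike, with a median of -0.71. Over all genes 45.7% lay below 0 under the 75th percentile. On the lower side 2 passed 2-fold (18.2%, against 2.41% of all genes). H2-Eb1 was at 3.14 in wild type and 1.44 in knockout with R848, and at 3.64 and 1.45 untreated. H2-Aa was at 5.99 and 2.84, and at 8.04 and 3.95 untreated. The bright members H2-Ab1 (38.6 and 22.4) and the invariant chain Cd74 (35.8 and 19.0) were 1.73-fold and 1.88-fold lower, and H2-DMb1 was the member above 0 (0.18). The list's untreated median was -1.02. MHC class I genes sat near 0 (median 0.02), with H2-K1 at 225 and 190 and B2m at 97.5 and 93.3. Class II is also carried by dendritic and B cells, and 6 of 9 dendritic cell markers lay below 0, from Ccr7 at -1.38, the 1 past 2-fold, to Itgax at 0.88 at the upper end. Their summed signal was 50.2 in wild type and 53.6 in knockout. Of 10 B and plasma cell markers 1 was lower, Vpreb1 (-1.84), and 3 higher, and their summed signal was 6.86 and 9.29. Their part in the class II values was not tested.

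Inhibitors of signalling showed 1 gene past the threshold. Dusp2, a phosphatase that switches off MAP kinases, was at 18.6 and 9.10 with R848 and at 1.83 and 1.46 untreated. The other phosphatases of the family went both ways, with Dusp1 at 12.8 and 9.91 and Dusp6 at 3.51 and 6.67. None of 20 NF-kB components and feedback inhibitors passed 2-fold, including Nfkbia (22.4 and 17.7), Nfkbiz (26.9 and 17.9) and Traf1 (34.7 and 20.5). Toll-like receptors and adaptors also had no member past 2-fold, and Tlr7, the receptor for R848, was at 1.77 and 1.72.

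Receptors for particles and lipids held some of the brightest differences. Clec7a, the gene of dectin-1, which senses fungal beta-glucan, was at 12.4 in wild type and 35.4 in knockout with R848, and at 24.2 and 46.2 untreated. It was higher in knockout by 2.84-fold and 1.91-fold, and both probes stood above 1 on the log2 scale with R848 (1.30 and 1.51). It was 1 of 16 measured C-type lectin receptors past 2-fold. Cd36, which takes up oxidised lipids, was at 38.1 and 74.0, and Mertk, a receptor for dying cells, at 0.272 and 0.545. Cd5l, a secreted protein of tissue macrophages, was 5.62-fold lower, at 21.8 and 3.88 with R848 and at 34.6 and 6.13 untreated, a difference of -2.50 there and -2.49 here. Marco was at 278 and 344 with R848, although at 4.13 and 0.951 untreated.

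Genes of alternative activation did not move as a group. Egr2, a transcription factor induced by IL-4 and by M-CSF, was at 16.4 and 37.2 with R848 and at 14 and 28.5 untreated. Chil3, also a monocyte marker, was lower, and Arg1 was at 0.160 and 0.0616, the latter not well above background. Mgl2 (18.7 and 13.6), Tgm2 (17.7 and 16.8) and Folr2 (6.46 and 7.94) lay within 1.38-fold. Among enzymes of nitric oxide, itaconate and lipid mediators, Alox5, the 5-lipoxygenase, was at 0.522 and 0.193, while Nos2 (1.49 and 2.04), Acod1 (80.7 and 105) and Ptges (94.8 and 98.0) differed by less than 1.38-fold.

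Targets of the oxidative stress factor NRF2 lay above 0 in all 13 measured cases with R848 (12 under array median centring), with a median of 0.41 against 0.15 untreated. Over all measured genes 54.3% lay above 0 with R848 and 2.37% were at least 2-fold higher. Gclc, the catalytic subunit of the first enzyme of glutathione synthesis, was at 17.3 in wild type and 36.3 in knockout with R848 and level untreated, at 6.69 and 6.62. It was the 1 member past 2-fold. Prdx1 (172 and 232), Txnrd1 (141 and 188) and Taldo1 (85.8 and 115) were 1.34-fold, 1.33-fold and 1.34-fold higher, and Hmox1 was at 318 and 369. Lysosomal genes lay above 0 in 21 of 22 cases (20 under array median centring) with a median of 0.25 and none past 2-fold, among them the proteases Ctsb (166 and 204) and Ctss (247 and 308). Cholesterol synthesis genes lay above 0 in 20 of 22 cases (19 under array median centring) with a median of 0.24 with R848 and -0.17 untreated.

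Most genes of mitosis lay below 0, and few passed 2-fold. Of 23 measured 21 lay below 0, against 45.7% of all genes, with a median of -0.57. Past 2-fold on the lower side were 4 (17.4%, against 2.41% of all genes). Bub1, a spindle checkpoint kinase, was at 0.614 and 0.196, Bub1b at 0.230 and 0.0955 and the spindle motor Kif11 at 0.628 and 0.311. Top2a was at 3.31 and 1.64, but its probe lies among shifted spots and the gene's difference without those spots was -0.44. The brightest members Birc5 (22 and 15.5) and the proliferation marker Mki67 (5.83 and 4.13) were 1.42-fold and 1.41-fold lower. The kinase Aurkb was level by its brightest probe (0.05), while its other probe stood at -1.35. The DNA replication list had its median at -0.25 with 1 of 24 genes past 2-fold and 7 above 0, and in it stood Prim1, a subunit of primase, at 0.251 and 0.106 and the sliding clamp Pcna at 54.9 and 62.6. Precursor markers moved with these genes, and their part was not tested.

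Complement and secreted defence genes differed in single members. C2 was at 0.251 and 0.0383, not well above background in knockout, so at least 4.36-fold lower. C3, the central component, was at 66.0 and 35.6 with R848 and at 32.7 and 7.46 untreated. Besides Hp, the siderophore-binding protein Lcn2 was at 226 and 126, and the acute phase gene Saa3 was close to level at 248 and 231 with R848, although at 5.57 and 0.241 untreated. The matrix metalloprotease Mmp12, a macrophage elastase, was at 128 and 244.

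The largest higher values among well-measured genes were spread over unrelated functions. The uncharacterised gene 1700088E04Rik was at 0.150 and 1.24 (8.27-fold) and Zdhhc24, a palmitoyltransferase, at 0.511 and 4.07 (7.97-fold). On the untreated arrays Zdhhc24 was at 0.786 and 0.586 and 1700088E04Rik at 0.223 and 0.283, so in both cases the stimulated knockout array alone was high. Shisa4 was at 0.233 and 1.04. Fabp7, a fatty acid-binding protein, was at 8.59 and 24.3 with R848 and at 19.2 and 44.2 untreated, and Vsig8 at 0.735 and 2.24 and at 1.05 and 3.00, both higher in knockout in each condition. Tacc2 (1.20 and 3.33), Comp (0.782 and 2.15), Tmem273 (0.402 and 1.1) and Sppl3 (1.73 and 4.84) followed, the last with probes from 0.04 to 1.49. Ccdc96 and Gm5922 were not well above background in wild type and at least 25-fold and 14.7-fold higher, each on 1 probe that was dark on the other 3 arrays. Of the spots around the Gm5922 probe 18.8% were also more than 2-fold higher.

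Among the largest lower values, besides the genes already named, St6galnac2, a sialyltransferase, was at 2.76 and 0.234 with R848 and at 0.633 and 0.0910 untreated, with probes between -4.58 and -0.31. Ndrg2 was at 1.17 and 0.252 and at 2.07 and 0.370. BC018473 had the largest bound, at 6.36 in wild type and not well above background in knockout, at least 110-fold lower with R848 and at least 66.6-fold lower untreated. Gria3, a glutamate receptor subunit, was at 1.12 and at background in knockout, at least 19.5-fold lower, and at 3.80 and 0.155 untreated. Each of these was low on both knockout arrays. Gm9999 was at 2.94 on the stimulated wild-type array and dark on the other 3, with 22.9% of the spots around it more than 2-fold lower.

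Most well-measured lower genes were also lower without R848, which was not so for all lower genes. These comparisons share no array. Of the 101 well-measured lower genes 73 (72.3%) were also at least 2-fold lower untreated and none was higher. These 73 make up 47.7% of the 153 genes lower untreated among all genes of the same quality. That quality was judged on the R848 arrays alone, so an untreated value there may be a bound or lie among shifted spots. Of the 77 well-measured higher genes 8 (10.4%) were at least 2-fold higher untreated, 3 were at least 2-fold lower, and 65 lay above 0. The 8 make up 19.5% of the 41 genes higher untreated among all genes of that quality. Of the 6472 genes of that quality 0.633% were higher and 2.36% lower untreated, and of all 20308 genes measured untreated 2.83% and 3.21%. Among all 459 lower genes 174 (37.9%) were also lower untreated, and among all 451 higher genes 35 (7.76%) were also higher. Untreated values existed for 405 of these lower and 372 of these higher genes, and the rest count as not shared. All 101 and 77 well-measured genes had untreated values. Median differences of the 101 lower genes were -1.37 with R848 and -1.39 untreated, and those of the 77 higher genes 1.14 and 0.41. The 3 that changed sides past 2-fold were Cxcl10, Rsad2 and Slfn1, a Schlafen family gene found outside the naming rule, at 0.941 and 2.06 with R848 and at 0.255 and 0.108 untreated.

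Among the lower genes, Il10, Il12b, Dusp2 and Spic, the last named after its value was seen, were less than 2-fold lower untreated. Untreated Il12b lay so close to the lowest value well above background that a 2-fold lower knockout value could not have been seen. Spic, a transcription factor of iron-recycling macrophages, was at 4.81 and 1.58 with R848, and its untreated difference was -0.63. In the other direction, several defence genes that were lower untreated lay near level with R848, as Saa3 (-4.53 and -0.10), Irf7 (-2.48 and -0.32) and Marco (-2.12 and 0.31) show. Whether a difference with R848 departs from the untreated one was not tested, since each rests on 1 array per genotype.

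**Figure D4:**
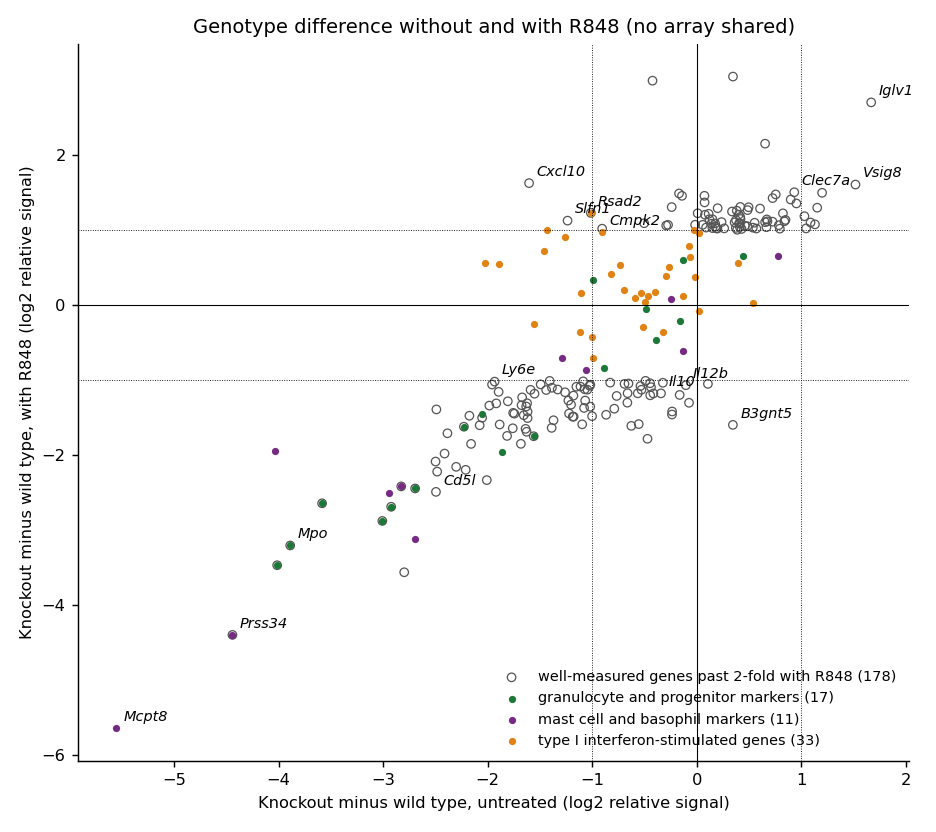
Knockout minus wild type untreated (x axis) and with R848 (y axis), both log2 relative signal, for the 178 well-measured genes past 2-fold with R848 (open circles) and 3 gene lists (filled points, the number of genes in brackets); dotted lines mark 2-fold and values at or below background are lower bounds. Precursor and basophil markers lie along the diagonal at the lower left, interferon-stimulated genes lie mostly left of 0 and above 0, and Cxcl10, Rsad2 and Slfn1 lie in the upper left.

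Position on the slide touched part of the calls. In 1044 spots the spots around differed between the genotypes by a shared shift, and 416 measured genes had their probe there, 43 of the higher and 62 of the lower genes among them. None of the well-measured genes lies in such an area by definition. Without those spots 413 genes were higher and 401 lower.

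**Figure D5:**
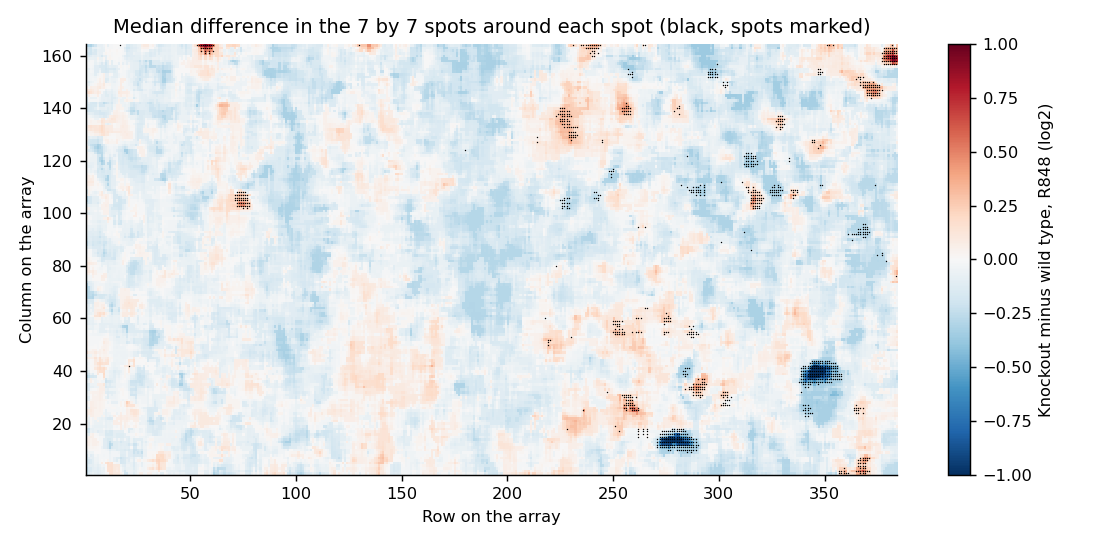
Map of the array surface (row on the x axis, column on the y axis) coloured by the median knockout minus wild type difference with R848 (log2) in the 7 by 7 spots around each spot; black points are the 1044 spots marked for a shared shift. The marked spots form patches, among them 2 blue ones where knockout is lower, and most of the surface is pale.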

How the data were processed

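Total RNA was labelled with Cy3 and read on 4 one-colour Agilent arrays on 1 slide, per the labels and file headers. Agilent Feature Extraction (version 11.5.1.1) gave the spot values, per the submitters' processing notes; the deposited processed signal is a linear intensity with background and spatial trend taken off within the array, per the file headers, and no scaling between arrays. The flags for spots well above background are the deposited ones. The authors' table of scaled intensity was used as an alternative; its columns were the processed signal times 1 factor per array for 100.0% of 39374 spots within 1%, the medians of the R848 columns were 675 and 685, and what its scale refers to is unknown. The authors' deposited log2 ratios were not used.

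Here each processed signal was divided by the 75th percentile of its array (265 for wild type, 252 for knockout with R848) and put on the log2 scale. Spots flagged as outliers were dropped (115 and 70), spots of a probe averaged, and no spot was saturated. Of all probes, 60.6% and 64.9% were well above background. A dimmer value not well above background was raised to the array's lowest such value (0.0702 and 0.0576) or its own where higher, giving "at least N-fold"; 223 genes got no fold. A gene took its brightest measured probe. A spot was marked when the median difference of the 7 by 7 spots around it passed 0.5, that of the 8 nearest passed 1, or 25% of the 48 around it passed 2-fold in 1 direction. Names came from the file and the GRCm38.p6 gene table (40458 of 56605 probes).

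The rule for named genes takes 13 fixed genes, the 12 largest differences per direction among well-measured genes, up to 6 lower bounds, and from each of 39 gene lists the members past 2-fold and up to 4 bright ones. The members, lists and rule were chosen with earlier results of these data known; genes outside the rule were picked after their values were seen. Alternatives were other centring, background correction (normexp in limma 3.58.1), the authors' table, filters, probe averaging, flags and areas. Python 3.11.15, R 4.3.3 and scipy 1.17.1 were used. The steps were tested on simulated data. The number of arrays limits the precision. Results for some genes are not reported here.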

Additional observations from a re-analysis of the deposited data

Results flagged for a closer look

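Cxcl10 was 1.63 higher in knockout on the log2 scale with R848 and -1.60 untreated, the latter a bound because the knockout value was not well above background. Rsad2 was 1.23 higher with R848 and -1.01 untreated. Each stood past 2-fold on opposite sides of 0 in the untreated and the stimulated cells, which is why these genes are singled out; with 1 array per group the difference between the conditions was not tested.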

How the results depend on the processing

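The count of genes higher in knockout (451) was 111 under normexp background correction, 267 with both arrays well above background, 1386 with no filter and no bounds, and 94 for genes whose brighter array reached its 75th percentile. The count of lower genes (459) was 149, 336, 839 and 137 under the same settings. Normexp used the median spot signal, chosen after seeing the data because the files hold no mean signal, and its offset of 50 shrinks differences of dim signals. The other settings gave 386 to 492 higher and 320 to 514 lower genes. Higher genes made up 49.6% of calls in the main setting, 42.9% under array median centring, 44.7% under quantile normalization, 42.7% under normexp. They made up 62.3% with no filter and 60.6% by the authors' scaling. Of 79 named genes past 2-fold, 46 stayed past it the same way in every setting that measured them, and 0 changed sign. Batf2 stood at -1.05 under normexp. The median of mast cell and basophil markers ranged from -2.42 to -0.84 and that of monocyte markers from -0.87 to -0.29. The medians of MHC class I, costimulation, MAP kinase phosphatase, C-type lectin, Fc receptor and erythroid and megakaryocyte genes crossed 0 between settings. No paired analysis was possible because each group has 1 array. Signal over background limits dim genes: 184 of the higher and 123 of the lower calls are bounds.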

Other observations

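Some gene families outside the lists were looked at after their values were seen. Of 10 measured Ly6 genes, which encode small surface proteins and include near-identical copies, 6 were at least 2-fold lower in knockout with R848 (family median -1.05), and untreated 5 were lower and 1, Ly6k, was higher by a bound of 1.18 on the log2 scale, after being lower with R848 only by a bound; Ly6c1 was at 47.3 in wild type and 12 in knockout, Ly6a at 6.02 and 1.93 and Ly6e at 65.9 and 32.5. All 3 measured chitinase-like genes were lower in both conditions, with Chil1 at 7.05 and 2.19, but the Chil4 probe lies among shifted spots. Over all measured genes 2.41% were lower with R848 and 3.21% untreated. Of 10 stefin A cluster genes, which encode inhibitors of cathepsins and are also close copies, 6 were lower with R848 (median -1.08) and 1 of 7 untreated (median -0.29); Stfa2 was at 2.36 and 1.15 and Cstdc5 at 1.48 and 0.584. Of 46 histone genes, linker histones included, 6 were lower and none higher (median -0.38), among them H2ac23 at 5.87 and 2.77.

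Higher in knockout were single members of metabolic families. Of 21 glutathione transferase genes, which couple glutathione to reactive compounds, 3 were higher and 1 lower: Gsta3 was at 20.6 and 43.5 with R848 and at 4.2 and 9.20 untreated, and Mgst2 at 2.09 and 0.940. Of 8 fatty acid-binding proteins 2 were higher, Fabp7 and Fabp3 (4.60 and 9.54), and 1 was lower, Fabp12, whose probe lies among shifted spots. Nampt, the enzyme that recycles nicotinamide, was at 36.5 and 78.5, and Traf5 at 4.07 and 8.78.

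Of 6911 measured probes without a gene name, 160 were at least 2-fold higher (2.32%) and 253 lower (3.66%). The genotypes differed alike with and without R848 for 4 probes in 3 intervals on the reverse strand of chrX:92139043-92157256 (coordinates from the probe names, taken here as mm9). Knockout was lower by 1.46 to 1.96 on the log2 scale with R848 and by 1.5 to 1.94 untreated. A probe at chr19:5834117-5835940 (also taken as mm9, reverse strand) was at 3.42 and 8.74 with R848 and at 8.99 and 23.4 untreated. What these probes read was not analysed here.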
